A study of Arabidopsis thaliana with 6 samples.

Results

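The 34 genes described here encode the machinery that licenses and starts DNA replication in Arabidopsis thaliana, together with the E2F, DP and RBR proteins that control its transcription. They were picked by locus identifier for their known roles, with earlier results of these data known, from the 36793 loci of a bulk RNA-seq count table. All libraries came from the wild-type accession Col-0. Leaf explants were cut from 2-week-old seedlings and cultured on callus-inducing medium, and callus was harvested on day 7 and on day 12, with 3 biological replicates per day. No label says whether replicates came from separate plants or plates, so p-values measure the spread between these libraries. A callus harvest mixes many kinds of cell, and fewer cycling cells cannot be told apart from less RNA of these genes per cell.

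Before a cell copies its DNA, the origin recognition complex (ORC) marks the sites where copying will begin. CDC6 and CDT1 then load the ring-shaped MCM2-7 helicase there, a step called licensing, and CDC45, MCM10 and other factors later switch the helicase on. Many of the genes involved are transcribed in a burst before S phase by E2F proteins paired with a DP partner. The retinoblastoma-related protein RBR1 holds E2F in check until cyclin-dependent kinases phosphorylate it.

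Between day 7 and day 12, 19 of the 34 genes fell, 0 rose and 15 did not pass the test. At an unadjusted p under 0.05 edgeR had 23 lower and 0 higher, and DESeq2 22 and 0. Over all genes, in either direction, 7148 of 18364 had such a p by edgeR and 6674 of 24994 by DESeq2. All 34 were abundant enough to be tested. The MCM2-7 helicase (6 of 6), the loading factors (3 of 3) and the helicase activators (3 of 3) fell in every member. In the ORC 2 of 7 genes fell, and among the E2F, DP and RBR regulators 1 of 7. The fitted log2 change, day 12 minus day 7, ran from -1.07 (MCM10) to 0.26 (DPB). Its median was -0.50 against -0.0015 over all genes tested, and it was below 0 for 32 of the 34. It was below 0 for all 7 ORC genes (median -0.28) and for 5 of the 7 regulators. Differences between subgroups were not tested. The test was edgeR's quasi-likelihood test over 18364 genes with a Benjamini-Hochberg adjusted p of 0.05, by which 12.5% of all genes tested were lower on day 12 and 12.7% higher. For 24 of the 34 every day 12 library lay below every day 7 library, which was so for 22.5% of all genes tested. Levels are given as CPM, counts divided by library size and by TMM factors, which allow a gene to be compared between libraries. Summed over the 34 genes they stood at 1667 to 1739 CPM on day 7 and at 1155 to 1303 CPM on day 12.

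**Figure D1:**
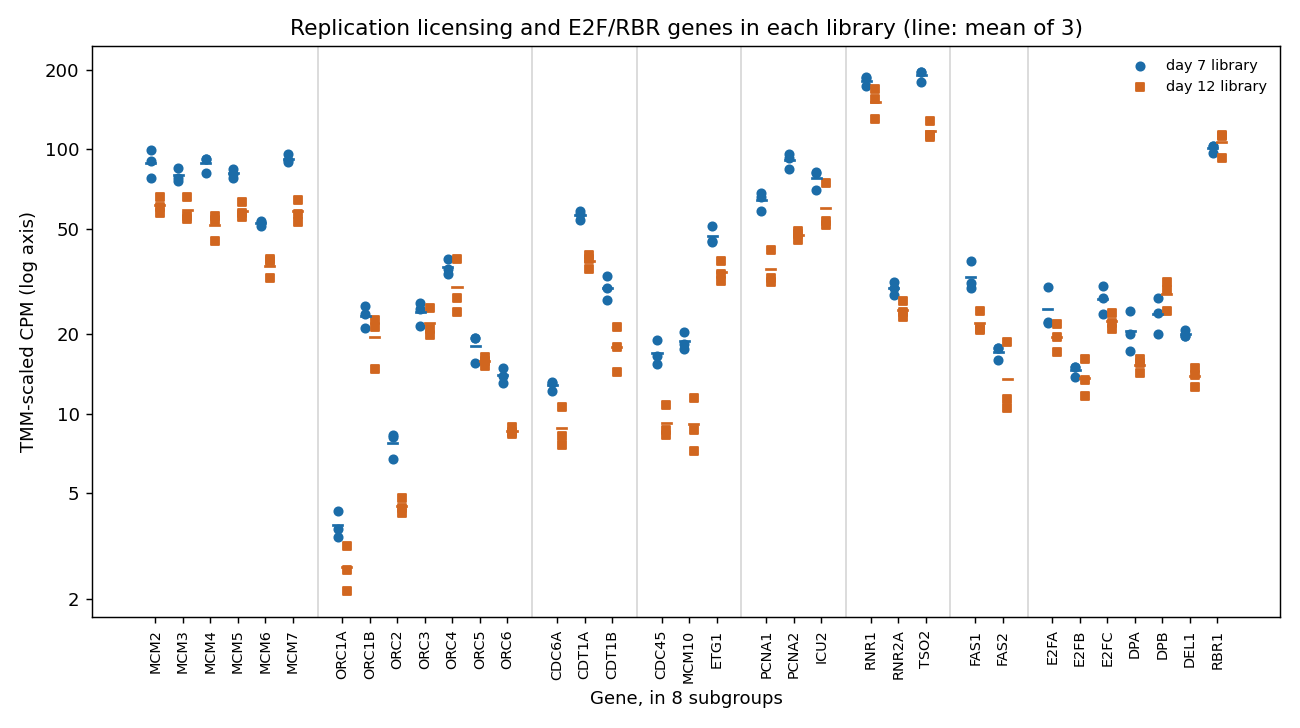
CPM (log axis) of each of the 34 genes in each of the 6 libraries, ordered by subgroup; circles are day 7 libraries, squares day 12 libraries and lines the mean of 3. In the MCM2-7 genes, the loading factors and the activators all day 12 squares lie below all day 7 circles, while RBR1 and E2FB overlap between days.

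Total counts ran from 4927953 (day 12 replicate 3) to 10746277 (day 7 replicate 2), and no member had fewer than 15 counts in a library. Of the 8 markers of dividing cells 8 fell, their summed level going from 538 to 587 CPM on day 7 to 316 to 330 CPM on day 12. All 9 callus and root primordium markers were detected, with sums of 545 to 619 and 625 to 656 CPM, 2 of the 8 tested being lower and 1 higher. Of these 8, 6 had a fitted change below 0 and 2 above 0. The 1 called higher was WOX11, which went from 40.3 ± 11.1 to 131 ± 68.5 CPM and weighs on the sums. LBD29 was not tested and had 0 counts in day 12 replicate 3. Leaf mesophyll markers summed to 121 to 178 CPM on day 7 and 49.5 to 82.3 CPM on day 12 (6 of 7 tested fell), with RBCS3B at 0 counts in day 12 replicates 1 and 2 and CA1 at 0 in day 7 replicate 2. Endodermis and suberin markers summed to 2.55 to 8.43 CPM and 34.3 to 61.2 CPM (4 of 4 tested rose), with CASP1 and CASP2 at 0 counts in every day 7 library. The part of these cell types in the changes below was not tested.

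MCM2 to MCM7 form the ring that unwinds DNA at the fork, each protein taking 1 place in it. All 6 genes fell, by 0.44 to 0.78 on the log2 scale. MCM4 (AT2G16440) showed the largest change of the ring, with 92.1, 81.5 and 91.7 CPM in day 7 replicates 1, 2 and 3 and 54.3, 45.0 and 56.1 CPM in day 12 replicates 1, 2 and 3. MCM7 (AT4G02060, PROLIFERA) stood at 89.6, 90.7 and 96.2 CPM on day 7 and at 57.0, 53.3 and 64.6 CPM on day 12. In both genes the days were separated by more than the whole spread within a day. MCM4 fell by 0.78 ± 0.11 (SE) on the log2 scale (adjusted p = 0.00271) and MCM7 by 0.67 ± 0.10 (adjusted p = 0.00297). MCM7 overlaps the gene AT4G02050 on the other strand, which rose by 0.74 (adjusted p = 0.0315), but the transcripts share 0 stretches of 50 bases. MCM6 (AT5G44635) had the lowest level of the ring, 53.7, 51.2 and 52.9 CPM against 37.7, 32.6 and 38.3 CPM, and fell by 0.54 ± 0.10 (adjusted p = 0.00675). MCM2 (AT1G44900) went from 89.1 ± 10.8 to 61.4 ± 4.20 CPM (SD, n = 3 per day; adjusted p = 0.00984), and MCM5 (AT2G07690) from 81.1 ± 2.95 to 58.7 ± 3.93 CPM (adjusted p = 0.00712). MCM3 (AT5G46280) had the smallest change, from 79.7 ± 4.61 to 58.8 ± 6.11 CPM (adjusted p = 0.0143). It was the 1 gene of the ring whose call was lost on leaving out a library (adjusted p = 0.0593 without day 7 replicate 1).

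Levels of different genes can be set side by side only per length, in TPM, where counts are divided by transcript length and scaled to a fixed sum per library. On that scale, rescaled without rRNA and organelle loci, the 6 ring genes lay close to each other. Within a library the highest was 1.72 to 2.01 times the lowest. The same measure was 8.93 to 15.2 for the 7 ORC genes, where the lowest was ORC1A, whose level is uncertain. On day 7 ORC1A stood at 2.17 TPM on average, the next lowest, ORC2, at 7.46 TPM and the highest, ORC4, at 23.8 TPM. MCM7 was the highest of the ring on day 7 (49.4 ± 1.45 TPM) and MCM6 the lowest (25.2 ± 0.73 TPM). The sum over the ring was 233 to 248 TPM in the day 7 libraries and 156 to 179 TPM in the day 12 libraries, with no overlap.

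E2F proteins bind DNA words of the form TTTCCCGC, TTTGGCGC, TTTCGCGC or TTTGCCGC. These 4 words were searched on both strands in the 250 bases before each annotated gene start, where 12 of the 34 genes held at least 1, or 35.3%, against 1.41% of the 27443 protein-coding nuclear genes. In the ring 5 of 6 genes held one. The stretches just upstream of those 5 genes are shown first, to set side by side where the word lies in MCM2, MCM5 and MCM6 (TTTCCCGC) and in MCM3 and MCM4 (TTTGGCGC). They are followed by 3 genes that hold a word and did not pass the test (ORC3, ICU2 and RBR1). Each is read 5′ to 3′ on the strand of its gene and ends at the base before the annotated start; the capitals mark the E2F word, which reads reversed and complemented (GCGGGAAA or GCGCCAAA) where it lies on the opposite strand. Sequences and coordinates are from RefSeq on TAIR10.1, an update of the TAIR10 build named by the submitters that left the nuclear chromosomes as they were.
MCM2, chr1:16970134-16970213, plus strand: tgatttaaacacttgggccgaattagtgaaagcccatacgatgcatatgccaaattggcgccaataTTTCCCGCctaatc
MCM3, chr5:18773707-18773886, minus strand: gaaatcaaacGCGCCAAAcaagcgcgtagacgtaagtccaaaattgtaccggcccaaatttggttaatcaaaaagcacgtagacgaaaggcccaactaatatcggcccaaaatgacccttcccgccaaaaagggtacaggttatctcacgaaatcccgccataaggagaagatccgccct
MCM4, chr2:7130730-7130809, minus strand: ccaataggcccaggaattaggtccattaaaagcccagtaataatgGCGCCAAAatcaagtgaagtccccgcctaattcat
MCM5, chr2:3527501-3527580, minus strand: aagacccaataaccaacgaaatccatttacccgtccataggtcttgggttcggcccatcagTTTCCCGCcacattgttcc
MCM6, chr5:18010668-18010747, minus strand: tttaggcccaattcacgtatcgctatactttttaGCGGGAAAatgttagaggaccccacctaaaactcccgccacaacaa
ORC3, chr5:5474286-5474365, plus strand: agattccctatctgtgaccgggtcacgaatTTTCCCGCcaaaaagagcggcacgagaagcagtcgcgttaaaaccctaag
ICU2, chr5:26776873-26776952, plus strand: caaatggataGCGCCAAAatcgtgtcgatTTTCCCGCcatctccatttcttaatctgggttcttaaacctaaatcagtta
RBR1, chr3:3919360-3919445, minus strand: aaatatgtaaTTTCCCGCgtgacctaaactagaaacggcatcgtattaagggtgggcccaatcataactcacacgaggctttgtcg

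In MCM2 and MCM5 the word TTTCCCGC began 14 and 19 bases before the gene start, in MCM6 it lay on the other strand 46 to 39 bases before it, and in MCM4 and MCM3 the word TTTGGCGC lay on the other strand 35 to 28 and 170 to 163 bases before it. MCM7 held none in this window and fell as its partners did. The other members with a word were ORC1A, ORC2, FAS1 and FAS2. Of the 12 members with a word 7 fell (58.3%), and of the 22 without one 12 fell (54.5%). Related words were not searched, such as TTTGGCGG. Read by eye, it lies upstream of CDC45 and, on the opposite strand, of DPA, MCM3, ORC1A and ORC3, a list that may be incomplete. Genes counted as without a word may therefore hold another E2F site. Among all 268 tested genes with a word, which include these 12, 69 were lower on day 12 (25.7%) and 24 higher, beside 12.5% lower over all genes. Words of the 2 genes with more than 1, ICU2 and FAS1, did not overlap each other. With the window extended to 50 bases past the start, 14 of 34 members and 1.76% of all genes held a word, the added members being ORC4 and RNR1.

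**Figure D2:**
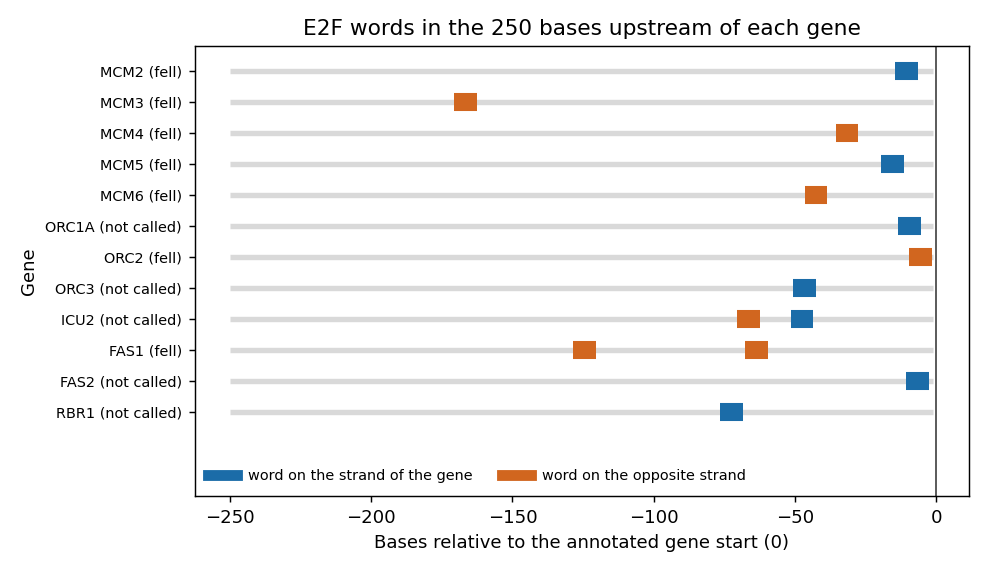
Position of each E2F word in the 250 bases upstream of the annotated start (at 0) for the 12 members that hold one, in bases; blue words lie on the strand of the gene and orange words on the opposite strand. Most words lie within 80 bases of the start, the exceptions being those of MCM3 and the farther of the 2 words of FAS1.

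The origin recognition complex changed less evenly. ORC6 (AT1G26840), its smallest subunit, stood at 15.0, 13.9 and 13.1 CPM on day 7 and at 8.57, 8.41 and 8.89 CPM on day 12, falling by 0.70 ± 0.15 on the log2 scale (adjusted p = 0.0118). ORC2 (AT2G37560), a core subunit, stood at 8.30, 6.74 and 8.19 CPM and at 4.79, 4.39 and 4.23 CPM, falling by 0.78 ± 0.22 (adjusted p = 0.0311). In both genes all day 12 libraries were below all day 7 libraries, but the call of ORC2 was lost on leaving out any single library (adjusted p from 0.0519 to 0.0968) and by DESeq2 (0.0644). The other 5 genes did not pass. ORC3 (AT5G16690) stood at 24.2 ± 2.41 and 22.0 ± 2.81 CPM, with an interval of the log2 change from -0.46 to 0.16. ORC5 (AT4G29910) stood at 18.1 ± 2.21 and 15.8 ± 0.62 CPM (interval -0.51 to 0.12). The median log2 change of the ring, -0.54, lay outside the intervals of ORC3 and ORC5. The smallest change of the ring, -0.44 in MCM3, lay inside both. The intervals of ORC4 (-0.65 to 0.11), ORC1A and ORC1B included the median of the ring. ORC4 (AT2G01120) was at 35.2, 33.7 and 38.5 CPM on day 7 and at 27.4, 24.3 and 38.5 CPM on day 12, where replicate 3, the shallowest library, stood at the day 7 level. The log2 change of ORC4 was -0.27 (adjusted p = 0.263). It was -0.47 without day 12 replicate 3 (adjusted p = 0.0301), -0.21 without replicate 1 (0.491) and -0.14 without replicate 2 (0.586). Its size thus depends on single libraries. ORC4 shares 1.91% of its 50-base stretches with the antisense gene AT2G01130, which rose by 0.40 (adjusted p = 0.0147).

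ORC1, the subunit that in plants also reads histone marks, is encoded by a pair of genes. ORC1B (AT4G12620), known in Arabidopsis from dividing cells, stood at 23.5 ± 2.16 and 19.6 ± 4.25 CPM. Its log2 change was -0.28 (interval -0.67 to 0.11, adjusted p = 0.271). ORC1A (AT4G14700), known from endoreplicating cells, stood at 3.80 ± 0.45 and 2.63 ± 0.52 CPM. Its log2 change was -0.56 (interval -1.25 to 0.13, adjusted p = 0.209). Neither gene passed, although every day 12 library of ORC1A lay below every day 7 library. ORC1A was the lowest of all 34 genes in TPM. Of the 50-base stretches in its longest transcript, 34.2% also occur in transcripts of ORC1B or of the antisense genes AT4G06210 and AT4G14710; the last stood at 54.0 and 49.0 CPM. Its level is therefore uncertain.

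The loading factors fell in all 3 genes. CDT1A (AT2G31270), which brings the helicase to ORC, stood at 58.2, 57.1 and 54.1 CPM on day 7 and at 39.8, 35.2 and 38.3 CPM on day 12, falling by 0.58 ± 0.10 (adjusted p = 0.00415). Its homologue CDT1B (AT3G54710) stood at 33.1, 30.0 and 26.9 CPM and at 21.3, 17.9 and 14.4 CPM, falling by 0.73 ± 0.16 (adjusted p = 0.0114). Neither gene overlapped between days. CDC6A (AT2G29680, CDC6 in RefSeq), the ATPase that works with CDT1, went from 12.8 ± 0.53 to 8.83 ± 1.55 CPM (adjusted p = 0.0478). That call was lost on leaving out any library other than day 12 replicate 3 (adjusted p from 0.0952 to 0.128), by DESeq2 (0.101) and with no count filter (0.0586). CDC6A shares 4.44% of its 50-base stretches with AT1G07270 and the antisense gene AT2G29679, the latter at 0 CPM on both days.

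The factors that turn a loaded ring into a moving fork included the largest change of all 34 genes. MCM10 (AT2G20980, chromosome 2, bases 9011344 to 9013963 of TAIR10.1), an activator of the helicase, stood at 20.4, 18.3 and 17.6 CPM on day 7 and at 8.67, 7.26 and 11.4 CPM on day 12. It fell by 1.07 ± 0.18 on the log2 scale, a fitted change of -52.3% (adjusted p = 0.00506). CDC45 (AT3G25100), which joins the ring in the active helicase, stood at 15.4, 16.6 and 19.0 CPM and at 10.8, 8.31 and 8.68 CPM, falling by 0.87 ± 0.17 (adjusted p = 0.00759). For both genes the highest day 12 library lay well below the lowest day 7 library. ETG1 (AT2G40550), an E2F target that binds the MCM ring and is needed for sister chromatid cohesion, went from 47.1 ± 3.63 to 34.5 ± 2.94 CPM (adjusted p = 0.0169). Its call was lost without day 7 replicate 3 (adjusted p = 0.0613) or day 12 replicate 1 (0.0501).

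The sliding clamp PCNA, which tethers polymerases to DNA, is encoded by PCNA1 and PCNA2. PCNA1 (AT1G07370) stood at 68.6, 58.2 and 65.8 CPM on day 7 and at 32.5, 31.6 and 41.5 CPM on day 12, falling by 0.88 ± 0.13 (adjusted p = 0.00295). PCNA2 (AT2G29570) stood at 96.2, 84.0 and 92.4 CPM and at 45.6, 49.1 and 47.6 CPM, a fitted change of -47.7% with a 95% interval from -54.7% to -39.7%. Its adjusted p was 0.00141, the lowest of the 34 genes. The gene overlaps the antisense gene AT2G29560, with which 20.3% of its 50-base stretches are shared and which itself fell by 0.34 ± 0.11 (adjusted p = 0.0474). ICU2 (AT5G67100), the catalytic subunit of DNA polymerase alpha that begins each new strand, did not pass (log2 change -0.37, adjusted p = 0.0948). It stood at 81.9, 70.3 and 81.2 CPM on day 7 and at 74.4, 51.6 and 53.4 CPM on day 12. Replicate 1 of day 12 lay inside the day 7 range. ICU2 shares 11.5% of its 50-base stretches with the antisense gene AT5G67110, which stood at 5.82 and 7.79 CPM. ICU2 passed with the replicate number as a block (adjusted p = 0.0302) and without day 12 replicate 1 (log2 change -0.56, adjusted p = 0.0157). It did not pass without day 12 replicate 2 (-0.27, adjusted p = 0.234) or 3 (-0.30, 0.204), nor without any one day 7 library (adjusted p from 0.104 to 0.215).

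Ribonucleotide reductase makes the deoxynucleotides for DNA synthesis from a large subunit, RNR1, and a small subunit, here TSO2 or RNR2A. TSO2 (AT3G27060) had the highest level of all 34 genes, 171 ± 9.62 TPM on day 7 and 110 ± 6.86 TPM on day 12. In CPM it stood at 196, 196 and 180 on day 7 and at 111, 127 and 114 on day 12, falling by 0.70 ± 0.09 (adjusted p = 0.00243). RNR1 (AT2G21790) stood at 173, 186 and 187 CPM and at 155, 130 and 169 CPM (log2 change -0.27, adjusted p = 0.105), and RNR2A (AT3G23580) at 29.9 ± 1.60 and 24.7 ± 1.81 CPM (-0.28, adjusted p = 0.0940). These last 2 genes did not pass the test, although every day 12 library lay below every day 7 library in each. RNR2A shares 6.34% of its 50-base stretches with the antisense gene AT3G23570, which stood at 52.2 and 50.7 CPM.

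FAS1 and FAS2 are the large subunits of chromatin assembly factor 1, which deposits histones behind the fork. FAS1 (AT1G65470) went from 32.9 ± 4.16 to 22.0 ± 2.02 CPM, falling by 0.57 ± 0.13 (adjusted p = 0.0146, and 0.0546 without day 7 replicate 1). FAS2 (AT5G64630) stood at 15.9, 17.8 and 17.7 CPM on day 7 and at 11.4, 10.5 and 18.6 CPM on day 12, and did not pass (log2 change -0.38, adjusted p = 0.224). As with ORC4, day 12 replicate 3 stood with the day 7 libraries. The log2 change of FAS2 was -0.64 without that library (adjusted p = 0.0224), -0.27 without day 12 replicate 1 (0.476) and -0.23 without day 12 replicate 2 (0.494).

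**Figure D3:**
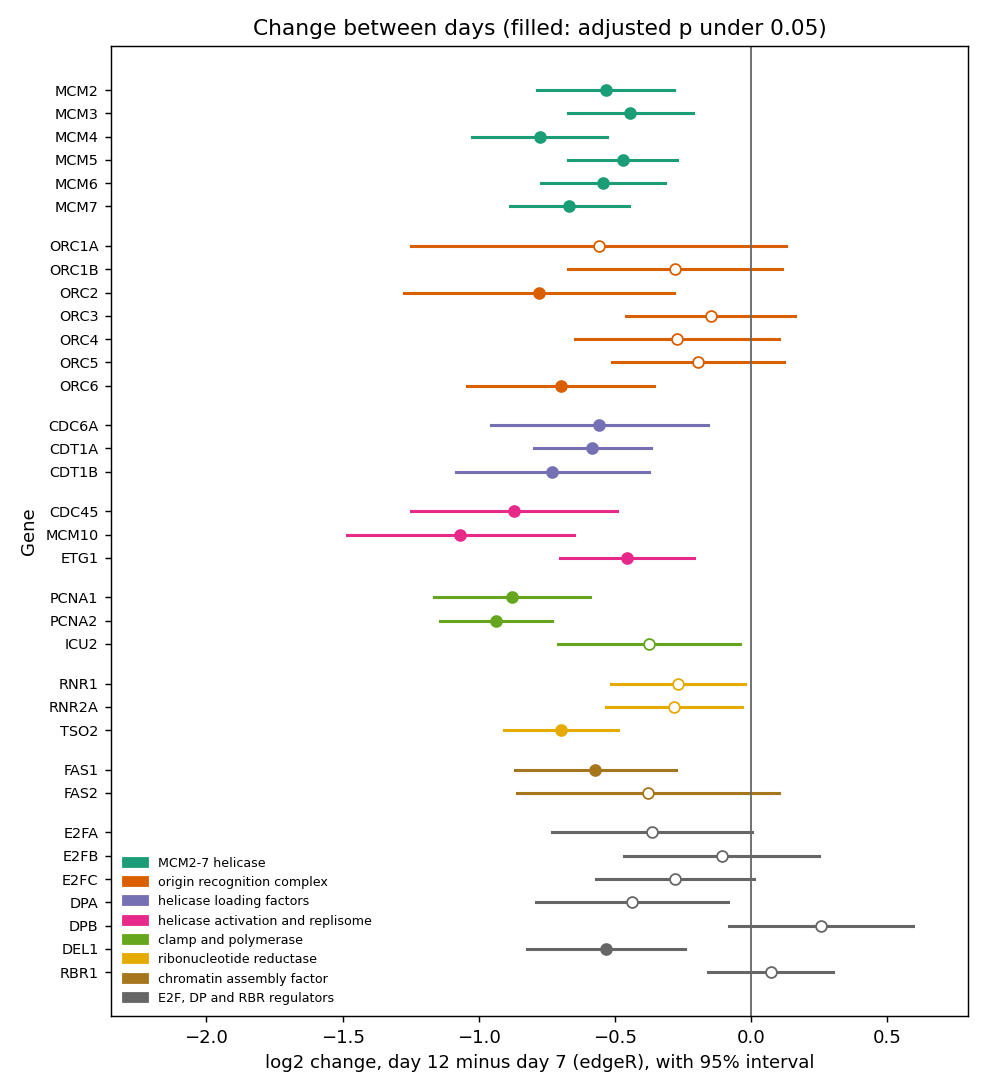
Fitted log2 change (day 12 minus day 7) of each gene with its 95% interval, coloured by subgroup; filled points have an adjusted p under 0.05 and open points do not. The 6 MCM2-7 genes lie between -0.78 and -0.44, and RBR1 and DPB are the 2 genes to the right of 0.

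Of the regulators of these genes 1 of 7 fell (14.3%), near the 12.5% of all genes tested, and the difference from the other subgroups was not tested. DEL1 (AT3G48160, also E2Fe), an atypical E2F that represses transcription without a DP partner and holds back endoreplication, was the 1 that fell. It stood at 19.7, 20.7 and 19.7 CPM on day 7 and at 12.7, 14.9 and 14.0 CPM on day 12, falling by 0.53 ± 0.13 (adjusted p = 0.0173). The days did not overlap, yet the call was lost without day 7 replicate 1 (0.0533), day 7 replicate 2 (0.0616) or day 12 replicate 1 (0.0626). DEL1 shares 14.4% of its 50-base stretches with the antisense gene AT3G48170, whose log2 change was 0.23 (adjusted p = 0.0975).

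RBR1 (AT3G12280) stood at 103, 96.5 and 103 CPM on day 7 and at 113, 92.5 and 113 CPM on day 12. The days overlapped, and the log2 change was 0.07 with a 95% interval from -0.16 to 0.30, so a fall as large as that of any MCM2-7 gene lay outside the interval. E2FA (AT2G36010, E2F3 in RefSeq) and E2FB (AT5G22220, E2F1 in RefSeq) are the activating E2Fs. E2FA stood at 22.2, 30.3 and 22.0 CPM and at 19.5, 17.2 and 21.8 CPM (log2 change -0.36 ± 0.16, adjusted p = 0.133), and E2FB at 13.7, 15.0 and 15.1 CPM and at 11.6, 13.4 and 16.1 CPM (-0.11 ± 0.16, adjusted p = 0.657). Neither passed, and E2FB overlapped between days. E2FC (AT1G47870), described as a repressor, stood at 27.2 ± 3.27 and 22.4 ± 1.57 CPM (adjusted p = 0.143).

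The DP proteins are the dimerisation partners that E2FA, E2FB and E2FC need to bind DNA. DPA (AT5G02470) stood at 17.3, 20.0 and 24.5 CPM on day 7 and at 15.5, 14.2 and 16.1 CPM on day 12 (log2 change -0.44 ± 0.16, adjusted p = 0.0690). DPB (AT5G03415) stood at 20.0, 27.5 and 24.1 CPM and at 29.3, 31.5 and 24.6 CPM (0.26 ± 0.15, adjusted p = 0.237). Neither passed, and their fitted changes pointed in opposite directions. The ratio of DPB to DPA was 1.16, 1.37 and 0.986 in day 7 replicates 1, 2 and 3 and 1.89, 2.21 and 1.53 in day 12 replicates 1, 2 and 3. It was thus higher in every day 12 library, by 0.68 on the log2 scale.

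Ratios within a library were compared for 7 pairs of paralogues or partners, since library scaling cancels in them. An exact two-sided permutation test of 3 against 3 libraries cannot give a p below 0.1, and adjusted over the 7 pairs the lowest value was 0.35, so none could pass. Besides DPB to DPA, only the ratio of TSO2 to RNR2A did not overlap between days. It was 6.23, 6.54 and 6.36 on day 7 and 4.80, 5.27 and 4.26 on day 12, a log2 difference of -0.42 (exact p = 0.1, adjusted p = 0.35). The ratio of PCNA2 to PCNA1 was 1.40, 1.44 and 1.40 on day 7 and 1.40, 1.55 and 1.15 on day 12 (exact p = 0.7, adjusted p = 0.8), and it overlapped between days. The ratios of ORC1B to ORC1A, CDT1B to CDT1A, E2FB to E2FA and FAS2 to FAS1 overlapped as well (exact p from 0.3 to 0.8).

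**Figure D4:**
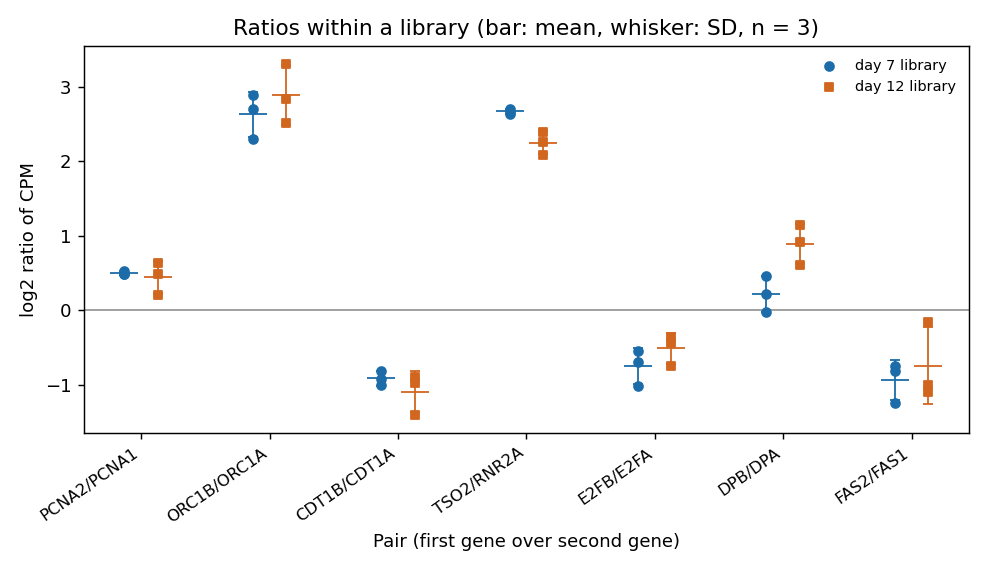
Log2 ratio of CPM of the first gene over the second gene of each pair in each library; circles are day 7 libraries, squares day 12 libraries, horizontal bars means and whiskers SD (n = 3). The days are apart for TSO2/RNR2A and DPB/DPA and overlap in the other 5 pairs.

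Beyond the 34 genes, 34 other genes linked to DNA replication, not all of them parts of the fork, were read from the same fit, and 33 were tested. Of these 13 fell, 0 rose and 20 did not pass, or 39.4% lower beside the 55.9% of the licensing and E2F/RBR genes and 12.5% of all genes; their median log2 change was -0.34. DUT1 (AT3G46940), which keeps uracil out of DNA, went from 49.9 ± 7.91 to 25.3 ± 1.51 CPM (adjusted p = 0.00256), and RPA1D (AT5G61000, RPA70D in RefSeq), of the single-strand binding protein RPA, from 55.9 ± 3.76 to 33.9 ± 1.86 CPM (adjusted p = 0.00262). ASF1B (AT5G38110), a histone chaperone, fell by 0.74 ± 0.12 (adjusted p = 0.00459), and RPA1B (AT5G08020, RPA70B in RefSeq) by 0.85 ± 0.16 (adjusted p = 0.00621). The number lower was 7 without day 7 replicate 1 or 2, 6 without day 12 replicate 1 and 8 by DESeq2.

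Of 15 genes that act on or beside E2F and RBR, 3 fell, 2 rose and 10 did not pass, with a median log2 change of -0.11. These counts lie near the shares over all genes, 12.5% lower and 12.7% higher, and show nothing particular to these genes. Those that fell were DEL3 (AT3G01330), an atypical E2F, from 21.2 ± 1.06 to 12.9 ± 0.69 CPM (adjusted p = 0.00528), MYB3R4 (AT5G11510), an activator of mitotic genes, and CYCD3;3 (AT3G50070), a cyclin whose kinase phosphorylates RBR1 (adjusted p = 0.0166 and 0.0364). The inhibitors of cyclin-dependent kinases KRP1 (AT2G23430) and KRP2 (AT3G50630) rose, KRP1 from 0.784 ± 0.11 to 2.94 ± 0.65 CPM on 5 to 38 counts a library (adjusted p = 0.00882) and KRP2 from 9.45 ± 1.40 to 15.8 ± 1.59 CPM (adjusted p = 0.0146). The cyclin gene CYCD3;1 (AT4G34160) stood at 133 ± 9.64 and 133 ± 22.0 CPM and CDKA;1 (AT3G48750), the kinase it binds, at 87.8 ± 0.81 and 106 ± 11.0 CPM (adjusted p = 0.0688); these 2 were chosen after their values were seen. Without day 7 replicate 1, 1 of the 15 was lower and 1 higher, and without day 7 replicate 2, 1 was higher.

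Of the 19 calls, 13 held without each of the 6 libraries in turn: MCM2, MCM4, MCM5, MCM6, MCM7, ORC6, CDT1A, CDT1B, CDC45, MCM10, PCNA1, PCNA2 and TSO2. The number called was 14 without day 7 replicate 1 and 20 without day 12 replicate 3. On the deposited TPM values, tested as log2(TPM + 1) with limma, 3 genes were lower (MCM10, PCNA1 and PCNA2) and 0 higher. rRNA loci held 1.67% to 30.7% of the TPM of a library, and after rescaling without rRNA and organelle loci, an alternative chosen after seeing the data, 14 genes were lower by the same test.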

How the data were processed

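RNA-seq of callus was analysed from 6 libraries. Per the labels' protocols, RNA was isolated with TransZol Up and libraries were made with a TruSeq kit. The deposited counts (whole numbers per locus) and deposited TPM values were used as given. The submitters' processing notes name the TAIR10 build, RSEM 1.3.1 and STAR 2.7.10a, without saying which made which table. Strand setting and treatment of multi-mapping reads: not given in the sources used here, so reads of overlapping genes or near-identical copies cannot be told apart.

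All tested genes (18364 after filterByExpr) were fitted with edgeR 4.0.16 in R 4.3.3 with TMM factors (0.960 to 1.04), robust quasi-likelihood and day as the only term; limma 3.58.1 and DESeq2 1.42.0 served as alternatives. Standard errors are the log2 change divided by the root of F, and intervals are 95%. The fit was also run on counts simulated from the means and dispersions of these libraries, a check of the code that lends no support to the calls. TPM was also rescaled without 4 rRNA and 164 organelle loci. A count of 3 stands for 0.269 to 0.635 CPM. No pair of libraries matched within sampling noise. Same-numbered libraries deviated together across genes (correlations 0.15, 0.16 and 0.24, against at most 0.01 for other pairs), a pairing that comes from the data and not from the labels; a second fit took that number as a block.

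Members, lists and tests were chosen with earlier results of these data known. All 34 members are named; of each other list the called genes of lowest adjusted p, up to 4 in each direction, may be named. From the other lists 8 loci whose name RefSeq does not carry were left out. Upstream windows, overlapping genes and shared 50-base stretches were computed from the RefSeq genome and annotation of TAIR10.1.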

Additional observations from a re-analysis of the deposited data

How the results depend on the processing

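Depth limits ORC1A most, with 15 to 48 counts in a library. With RLE factors, library sizes alone, limma-voom or without organelle loci, 19 members were lower and 0 higher, and DESeq2 gave 17 and 0 (22 lower at an unadjusted p under 0.05). With the replicate number as a block 20 members were lower, ICU2 being the added call; it changed no other member's call. On log2(TPM + 1), log2(TPM + 0.1) and unfiltered log2(TPM + 1) the members lower numbered 3, 3 and 0 (10 at an unadjusted p in each). The other replication genes lower numbered 1, 1 and 1 and the E2F and RBR partners 0, 0 and 0, with 0, 0 and 0 partners higher. Over all genes 284, 281 and 109 were lower and 796, 802 and 262 higher. An unadjusted p under 0.05, in either direction, was found for 3848 of 18735, 3846 of 18735 and 4289 of 23850 genes. On rescaled TPM 8 other replication genes and 1 partner were lower; DESeq2 gave 8 other replication genes. On leaving out a library, 14 to 20 members, 6 to 12 other replication genes and 1 to 4 partners were lower, 1 to 3 partners were higher, and 1248 to 2056 of all genes were lower and 1281 to 2286 higher, fewest without day 7 replicate 1. The log2 difference of the PCNA2 to PCNA1 ratio ran from -0.16 to 0.06 and that of FAS2 to FAS1 from -0.11 to 0.36, both changing sign without day 12 replicate 3 (to 0.059 and -0.11). The log2 change of E2FB ran from -0.22 to 0.0069, the latter without day 12 replicate 1. The cause of these shifts was not tested. No member's direction changed under another scaling.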

Other observations

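A second short word was searched after the upstream sequences had been seen. GGCCCA, on either strand, lay in the 250 bases upstream of 17 of the 34 members and of 5 of the 6 MCM2-7 genes, against 13.7% of the 27443 protein-coding nuclear genes. Since it was picked from these sequences, the share is a description.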
